A study of Mus musculus with 15 samples.

Results

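Long intergenic noncoding RNAs (lincRNAs) are RNA polymerase II transcripts that lie between protein-coding genes and code for no known protein. Many are scarce and restricted to few tissues, and the brain is known for the number and variety it expresses. A stretch of the genome can be transcribed from either strand, and an antisense RNA can be controlled separately from its partner, so 2 probes that read the opposite strands of 1 region measure different RNAs. The array used here carries probes named for mouse lincRNA exon regions. A probe name gives a region number and a plus or minus sign, and the regions described here are those with a probe of each sign: 1728 regions with 3456 probes, of 1729 regions and 3457 probes of this class. Each region has 1 probe per strand and each probe has 1 spot on the array. The region numbers run from 10002 to 12127 and are the only identity the files give, so no gene name, position, exon structure or sequence is printed for them. The sign is used as the name gives it. The files do not state whether it refers to the probe or to the RNA it binds.

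The RNA was total RNA of flash-frozen mouse brain, amplified to Cy3-labelled cRNA and read on Agilent arrays of 1 colour. The groups were wild type (WT) and, as the Alzheimer's disease model, APP/PS1 at the ages of 1, 3, 6 and 9 months, all on a C57BL strain background. APP/PS1 mice carry disease-linked forms of the amyloid precursor protein and presenilin 1 and are known for amyloid deposits that build up with age. The labels name neither the line nor the promoter of the transgenes, give no age for the WT samples (the series' design text calls the controls age-matched), and list 1 male and 2 females per group where the design text speaks of males only. The question named by the design is how noncoding RNA differs between APP/PS1 and WT brain at each age. All 4 comparisons with WT use the same WT samples.

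There were 14 scanner files, and a WT sample that has none enters nothing here. Replicates 2 and 3 at 1, 3 and 6 months were close copies of each other: the deviations of their negative control spots from the mean over spots of the same probe correlated at 0.80 to 0.83, against -0.01 to 0.24 for the other pairs within a group. Each such pair was averaged and counted as 1 sample, which left 11 samples: 2 each for WT, 1, 3 and 6 months, and 3 for 9 months. Nothing states that the samples came from separate animals, so the p-values measure the spread between these samples, which may be technical. The number of samples limits the precision. The scanner setting was 354 V on the 9-month arrays and 355 or 356 V on all others, so that setting and the age of 9 months cannot be told apart. By the labels replicate 1 of each group was male and the others were female. The male minus female difference over the 2590 probes tested below correlated at 0.26 between 1 and 3 months, 0.38 between 3 and 6 months and 0.47 between 1 and 6 months, and at -0.16 to 0.06 for pairs that hold WT or 9 months. At 1, 3 and 6 months the female sample is the averaged pair, so the labelled sex and the averaging cannot be told apart. The effect of a term for the labelled sex, added after the data were seen, is given in the closing section. Of 14 genes that mark brain cells, 2 transgene products and 6 genes of blood, liver and muscle, 0 could be matched to a probe by accession, so the tissue and genotype labels were not checked by markers.

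The first question was which strand gave a signal. A probe was counted as detected on an array where the scanner software flagged it as well above background. Of the 1728 regions, 12 had a probe with a non-uniform spot and were left out, so 1716 were followed. Both probes of a region were detected in 609 to 1029 regions per array, or 35.5% to 60% of them. The minus probe was detected in 63.8% to 80.7% of regions and the plus probe in 53.8% to 73.3%. The minus probes led on 14 of 14 arrays. In 2 other classes of paired lincRNA probes on the array, the minus probes led on 9 of 14 arrays (606 human-derived pairs) and on 12 of 14 (340 mouse pairs).

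Detection also moved with the array as a whole. Of all probes of the array, 68.0% (WT replicate 2) to 82.3% (replicate 2 at 6 months) were detected, and replicates 2 and 3 at 6 months had the most. Negative control spots, 1200 per array, carried the same flag at 6% to 35.8%, lowest in replicate 1 at 3 months and highest in replicate 2 at 6 months. The share of negative spots was 7% and 8.75% in the 2 WT samples. The part of this background in the detection of the regions was not tested, and no difference in detection between groups is drawn from it. The plot of detection by array shows the order of the 4 shares.

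**Figure D1:**
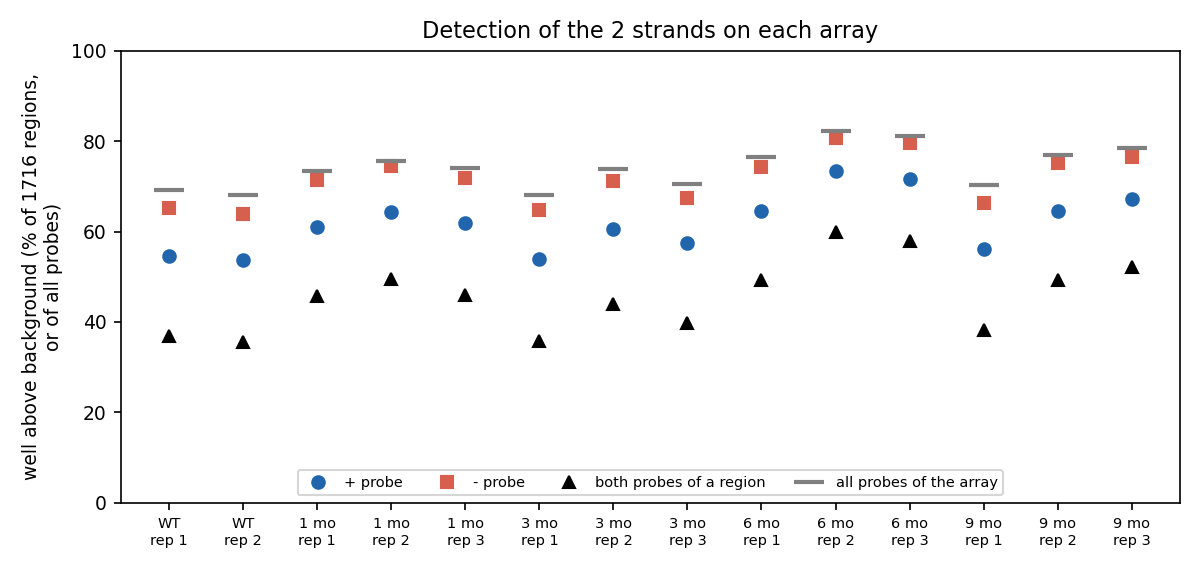
Percent of the 1716 regions with the plus probe, the minus probe or both well above background on each of 14 arrays, and the percent of all probes of the array (grey bars); the x axis gives the group and replicate. The minus probes lie above the plus probes on every array, and both probes together reach 60% on replicate 2 at 6 months.

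Over all 14 arrays, 451 regions (26.3%) had both probes detected every time. Another 181 had the minus probe detected on every array and the plus probe on none, and 86 showed the reverse. In 51 regions neither probe was detected on any array. The rest changed with the array: 326 had the minus probe always and the plus probe sometimes, 255 had the plus probe always and the minus probe sometimes, and 366 followed other patterns.

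Levels are given as log2 of the processed signal after subtracting each array's 75th percentile of it, so that 0 is the 75th percentile of the array. The median level was -3.92 for the plus probes and -3.33 for the minus probes, against -2.66 for all probes of the array, and no probe of the regions was saturated. A probe's brightness depends on its sequence as well as on its RNA, so the levels of the 2 strands of a region are not set against each other.

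Changes were tested in 1 limma fit over the 5 groups, with Benjamini-Hochberg adjustment over all 48298 probes that were detected on at least 3 arrays. A probe detected only in WT, which has 2 arrays, could not pass that filter, so losses and gains were not treated alike. Of the 3444 usable probes, partners of the left-out spots included, 2590 were tested (1224 plus and 1366 minus) and 854 were too dim. Of the 1716 regions, both probes were tested in 989, 1 probe in 604 and none in 123.

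Against WT, 160 of the 2590 probes changed at 1 month. The probes that rose were 95 (3.67%, against 4.41% of all probes tested), and 65 fell (2.51% against 4.14%). At 3 months 154 rose (5.95% against 6.45%) and 74 fell (2.86% against 3.72%). At 6 months 257 rose (9.92% against 12.5%) and 182 fell (7.03% against 8.45%). At 9 months 320 rose (12.4% against 17.4%) and 412 fell (15.9% against 13.5%). The regions' probes were thus called at or below the share of all probes in each direction, except for the falls at 9 months. Between 6 months and 1 month, a comparison without WT, 193 rose (7.45% against 12.9%) and 182 fell (7.03% against 9.29%). The F test over the 5 groups passed for 944 probes (36.4%, against 44.8% of all probes), and 937 were called at 1 or more ages against WT (36.2%, against 42.5% of all probes).

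The split between rises and falls depended on the scaling, the background correction and the filter on dim probes. In the main setting 59.4%, 67.5%, 58.5% and 43.7% of the calls at 1, 3, 6 and 9 months were rises. With quantile normalization the shares were 50%, 57%, 46.3% and 34.1%. With only the probes detected on every array they were 45.1%, 57.3%, 46.5% and 34%. With normexp background correction they were 11.2%, 43.4%, 14.8% and 13.6%. Normexp moved the median change of all probes against WT to -0.24, -0.16, -0.25 and -0.25 at the 4 ages, from 0.01, 0.02, 0.07 and 0.05 in the main setting. A direction of a dim probe below is therefore relative to that shift, and those that turned under normexp are named in the closing section.

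The 2 strands were called at unequal rates between 6 months and 1 month. The minus probes changed in 256 of 1366 cases (18.7%) and the plus probes in 119 of 1224 (9.72%). The minus share was the higher in 21 of 21 alternatives. These reuse the same samples, and several left out a sample of a group outside the comparison, so they give no independent support. With only the 2 groups in the fit the shares were 3.66% and 2.94%. In the main setting the minus share was also higher within each range of brightness. It was 4.96% against 3.99% for levels below -4 and 11.2% against 6.67% from -4 to -2. From -2 to 0 it was 24.6% against 7.76%, and above 0 it was 42.7% against 26.5%. The human-derived pairs had 7.32% on the minus and 3.79% on the plus strand, and the mouse pairs 1.49% and 3.54%. Against WT the gap was smaller, with 29.4% of the minus and 27% of the plus probes called at 9 months. The difference between the strands' shares has no test, because the probes are not replicates.

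**Figure D2:**
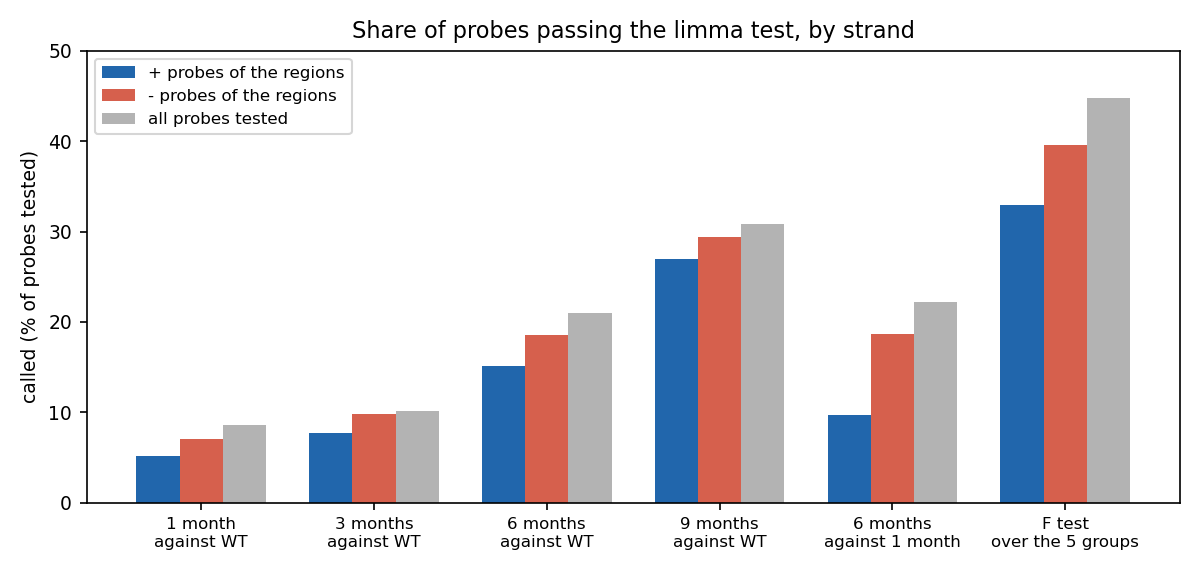
Percent of tested probes called by limma (adjusted p below 0.05), for the plus probes (blue) and minus probes (red) of the regions and for all 48298 probes tested (grey), in 6 comparisons. The widest gap between the strands is at 6 months against 1 month, 18.7% for minus and 9.72% for plus.

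Whether the 2 strands of a region changed together was asked next. Over the 989 regions with both probes tested, the change of the plus probe and that of the minus probe correlated at 0.07, 0.08, 0.12 and 0.06 at 1, 3, 6 and 9 months against WT, and at 0.15 for 6 months against 1 month. The points of each correlation share arrays and, for the 4 ages, the WT samples. In the 451 regions detected on every array, the correlation of the 2 strands over the 11 samples had a median of 0.15. It was above 0.8 in 31 of them and below -0.8 in 6. The median SD between samples of a group was 0.15 for the plus probes and 0.14 for the minus probes, while the group means spanned a median of 0.59 and 0.57.

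Where both probes of a region were called in the main setting, they mostly moved the same way. At 6 months 38 such regions had 1 direction and 8 had opposite directions, and at 9 months the counts were 57 and 35. Of the 35, 24 had the plus probe lower and the minus probe higher. At 1 month 7 moved together and 1, region 11076, did not. At 3 months 9 moved together and the exception was region 11104. Between 6 months and 1 month the counts were 30 and 6. With quantile normalization 60 and 30 were called at 9 months, and with normexp 120 and 28. The small counts at 1 and 3 months did not keep this lean. Quantile normalization gave 1 and 1 at 1 month and 4 and 2 at 3 months. Normexp gave 3 and 2, then 1 and 1. Without the 9-month arrays the counts were 1 and 1 at both ages.

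**Figure D3:**
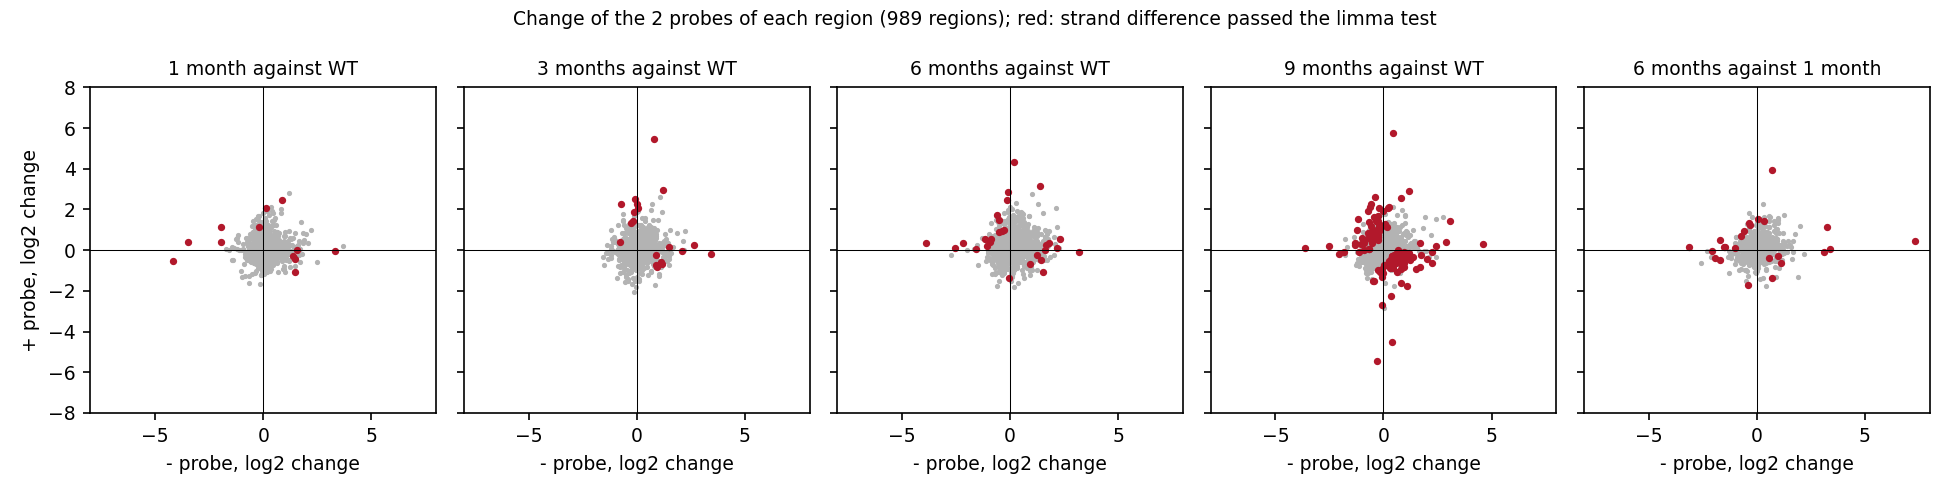
Log2 change of the plus probe (y axis) against that of the minus probe (x axis) for 989 regions in 5 comparisons, with regions whose strand difference was called by limma in red. Red points lie near an axis where 1 strand moved and off both axes where both moved. At 9 months against WT 132 regions are red, and region 10119 is 1 of those off both axes (-0.83 plus, 0.92 minus).

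The strand difference of a region is its plus log2 signal minus its minus log2 signal in the same sample. It cancels a scaling of the whole array by 1 factor. It does not cancel an added background, which weighs more on the dimmer probe. The 2 spots of a region lie a median of 140 spot positions apart, and no pair is adjacent. Its value in 1 group carries the unequal brightness of the probes, so only its change between groups was tested, in a limma fit of its own adjusted over the 989 regions. It changed in 12 regions at 1 month (1.21%), 19 at 3 months (1.92%), 28 at 6 months (2.83%) and 132 at 9 months (13.3%), all against WT. Between 6 months and 1 month 24 regions changed (2.43%), and 110 passed the F test (11.1%). In all, 145 regions were called at 1 or more ages. Of the 132 at 9 months 61 rose and 71 fell. Both probes were detected on every array of both groups in 70 of the 132. That held for 4 of the 12 at 1 month, 6 of the 19 at 3 months and 14 of the 28 at 6 months. Between 6 months and 1 month it held for 15 of the 24. The other called changes are measured only in part.

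These counts rest on the 9-month samples and on the shared spread to an unequal degree. Without the 9-month arrays the same regions still called were 10133, 10217 and 11076 at 1 month, 10299, 10767 and 11795 at 3 months, 10279 at 6 months, and 10133, 10212, 10279 and 10539 between 6 months and 1 month. Some of these changes are measured only in part. In region 10217 the plus probe was detected on no WT array and the minus probe on none at 1 month. In region 11795 neither probe was detected on any WT array, and the minus probe on none at 3 months. The minus probe of region 10279 was detected on no array at 6 months. With only the 2 groups of a comparison in the limma fit, 0 regions were called at 1, 3 and 6 months (123, 113 and 150 at an unadjusted p below 0.05). At 9 months 121 were called, 92 of them among the 132. The 9-month group holds 3 samples and each other group 2, so these fits do not have equal power. Of the 132, 106 were also called with quantile normalization, 44 with normexp, and 39 in each of the 11 fits that left out 1 sample. The scanner setting moves with that age, and its part in the count was not tested.

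In most regions whose strand difference changed, only 1 probe was called. At 9 months only the plus probe was called in 51 of the 132 and only the minus probe in 41, and both were called in opposite directions in 34. At 6 months the minus probe alone was called in 15 of 28 and the plus probe alone in 6. Between 6 months and 1 month the minus probe alone was called in 11 of 24. A probe that was not called may still have moved, so these counts do not show that 1 strand alone changed. In region 11104 at 9 months, for instance, the minus probe was called with a change of 0.92. Its plus probe changed by -0.37 and was not called (limma adjusted p = 0.089).

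The regions named from here on were chosen by size of change, by a stated rule, so their values describe them and the tests are those of the whole fits. Values are given per sample in the order of the replicates, on the log2 scale relative to the array's 75th percentile, and changes of the strand difference carry their standard error.

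Region 10539 had the widest swing of the minus strand. Its minus probe stood at -0.52 and -0.46 in WT, at -4.53 and -4.79 at 1 month, at 3.04 and 2.84 at 3 months, at 2.64 and 2.72 at 6 months, and at -0.31, -0.30 and -0.30 at 9 months. The 1-month samples were far below all others, the 3- and 6-month samples far above, and the 9-month samples lay close to WT. The plus probe, between -1.97 and -0.40 over the 11 samples, had group ranges that overlapped, and none of its comparisons was called (adjusted p of 0.543 or more against WT). At 1 month the minus probe was detected on 2 of 3 arrays, so the low level there is measured only in part. The strand difference changed by 3.66 ± 0.52 (SE) at 1 month, by -3.60 ± 0.52 at 3 months and by -3.25 ± 0.52 at 6 months (limma adjusted p = 0.015, 0.017 and 0.0162), and by -0.06 ± 0.47 at 9 months (adjusted p = 0.937). The 3 calls were lost without the 9-month arrays, where the adjusted p was 0.0888 at 3 months and 0.0641 at 6 months.

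Region 10133 was low on the minus strand at the youngest and the oldest age. The minus probe gave 0.32 and 0.24 in WT, -3.49 and -2.94 at 1 month, 0.14 and 0.02 at 3 months, 0.24 and 0.09 at 6 months, and -4.06, -3.20 and -2.85 at 9 months. The 5 samples at 1 and 9 months lay below the other 6, while the plus probe stayed between -3.50 and -2.70 in all 11. The strand difference rose by 3.89 ± 0.40 at 1 month and by 3.74 ± 0.37 at 9 months (limma adjusted p = 0.00403 and 0.000597). At 3 and 6 months its changes were 0.20 ± 0.40 and 0.57 ± 0.40 (adjusted p = 0.806 and 0.42). The call at 9 months held in 18 of 18 alternatives and that at 1 month in 18 of 20. Between 6 months and 1 month the difference fell by 3.32 ± 0.40 on the log2 scale (adjusted p = 0.00637).

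Region 10212 also had its low point on the minus strand at 1 month. Its minus probe read -0.73 and -0.81 in WT, -2.63 and -2.77 at 1 month, -1.13 and -1.12 at 3 months, 0.47 and 0.30 at 6 months, and -0.41, -0.35 and -0.41 at 9 months. No 2 groups overlapped. The plus probe stayed between -3.58 and -2.78 in all samples and was called in no comparison. The strand difference rose by 2.35 ± 0.27 at 1 month (limma adjusted p = 0.00601, and 0.0526 without the 9-month arrays). From 1 month to 6 months it fell by 3.18 ± 0.27 (adjusted p = 0.000635), a call that held in 19 of 20 alternatives.

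In region 10204 the minus strand parted the 9-month samples from the rest. The minus probe gave -1.62 and -1.44 in WT, -0.62 and -0.66 at 1 month, -0.44 and -0.31 at 3 months, 0.02 and -0.23 at 6 months, and -3.79, -4.23 and -4.09 at 9 months. It was above WT in all 6 samples from 1 to 6 months and below WT in all 3 at 9 months. The plus probe ranged from -3.32 to -2.07 and was not called against WT at any age, though it passed the F test (adjusted p = 0.046). The strand difference fell by 1.85 ± 0.34 at 3 months and by 1.92 ± 0.34 at 6 months (limma adjusted p = 0.0336 and 0.0218, 0.113 and 0.0641 without the 9-month arrays) and rose by 2.70 ± 0.31 at 9 months (adjusted p = 0.00167). Its group means spanned 4.62, the widest span of the 451 regions detected on every array.

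**Figure D4:**
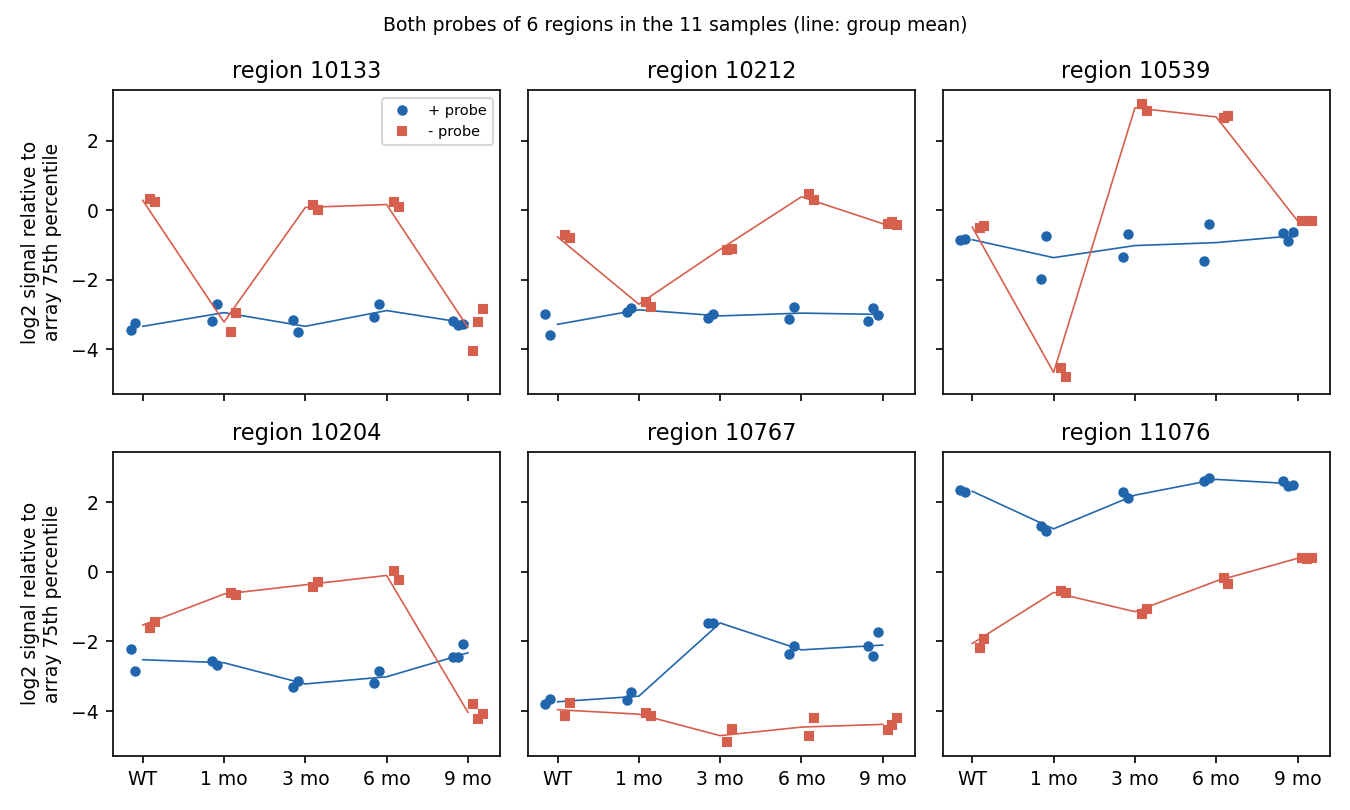
Log2 signal relative to the array's 75th percentile (y axis) of the plus probe (blue circles) and minus probe (red squares) of 6 regions in 11 samples, by group (x axis), with lines through the group means. In regions 10539, 10133, 10212 and 10204 the minus probe was called against WT and the plus probe at no age, in region 11076 both move, and in region 10767 the plus probe moves.

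Regions 10200 and 10572 showed the same parting of the 9-month samples on the plus strand. In region 10200 the plus probe read -1.26 and -1.32 in WT, between -0.89 and -0.48 in the 6 samples from 1 to 6 months, and -4.15, -3.75 and -4.11 at 9 months. Its strand difference fell by 2.64 ± 0.19 at 9 months (limma adjusted p = 0.000238), with the minus probe between -4.21 and -3.11 throughout. In region 10572 the plus probe lay between 2.79 and 3.24 in the 8 samples of the other groups and at 0.80, 0.70 and 0.89 at 9 months. Its strand difference fell by 2.58 ± 0.28 (adjusted p = 0.00123). Both calls held in 18 of 18 alternatives, and both regions lost the call of the F test without the 9-month arrays (adjusted p = 0.397 and 0.324).

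Region 11302 was low on the minus strand at 1 and at 6 months only. The minus probe gave 0.04 and 0.33 in WT, -1.25 and -1.28 at 1 month, -0.02 and 0.00 at 3 months, -2.40 and -2.35 at 6 months, and 0.16, 0.05 and 0.07 at 9 months. The 4 samples at 1 and 6 months lay below the other 7. The plus probe, from -4.67 to -3.09, was not called, and the strand difference rose by 2.65 ± 0.37 at 6 months (limma adjusted p = 0.0102, and 0.0641 without the 9-month arrays).

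Region 10279 lost the minus signal at 6 months. The minus probe read -2.67 and -2.55 in WT, -3.23 and -3.43 at 1 month, -3.27 and -3.49 at 3 months, -6.52 and -6.46 at 6 months, and -2.71, -2.58 and -2.49 at 9 months. At 6 months it was well above background on 0 of 3 arrays, so WT was at least 6.06-fold and the 9-month group at least 6.15-fold higher, taking the lowest detected signal of each array as the floor. The plus probe stayed between -3.27 and -2.55. The strand difference rose by 1.17 ± 0.22 at 3 months (limma adjusted p = 0.0336), a call that held in 4 of 19 alternatives.

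Region 10767 changed on the plus strand. Its plus probe gave -3.80 and -3.67 in WT, -3.70 and -3.45 at 1 month, -1.46 and -1.48 at 3 months, -2.35 and -2.13 at 6 months, and -2.15, -2.43 and -1.74 at 9 months. All 7 samples from 3 months on lay above the 4 of WT and 1 month. The minus probe, from -4.89 to -3.77, was not called at any age. On replicate 1 at 3 months its processed signal of 12.99 lay under the lowest detected signal of that array, 18.4. The change of the strand difference at 3 months, to which the minus probe adds a change of -0.74, is thus measured only in part. The strand difference rose by 3.01 ± 0.27 at 3 months, 1.99 ± 0.27 at 6 months and 2.05 ± 0.24 at 9 months (limma adjusted p = 0.00246, 0.0102 and 0.00167). Without the 9-month arrays the adjusted p at 6 months was 0.0592.

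The strand difference of region 11832 was called at 3 and 9 months. The plus probe stood at -1.92 and -1.91 in WT, -1.17 and -1.15 at 1 month, 0.07 and 0.22 at 3 months, -1.37 and -1.73 at 6 months, and 0.18, -0.16 and -0.06 at 9 months. The 6-month samples fell between those of WT and of 1 month. The strand difference rose by 2.01 ± 0.28 at 3 months and by 1.91 ± 0.26 at 9 months (limma adjusted p = 0.017 and 0.00292, and 0.0693 at 3 months without the 9-month arrays). At 1 month the plus probe alone was called, with a rise of 0.75 ± 0.15 (adjusted p = 0.0237). At 6 months the strand difference changed by 0.17 ± 0.28 (limma adjusted p = 0.748).

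In region 10816 the minus probe read 2.33 and 2.44 in WT, 2.79 and 2.68 at 1 month, 2.27 and 2.13 at 3 months, 1.29 and 1.13 at 6 months, and 1.37, 1.30 and 1.37 at 9 months. It was lower in all 5 samples of the 2 oldest groups than in the other 6. Its strand difference rose by 1.68 ± 0.31 between 1 month and 6 months (limma adjusted p = 0.0302), a call that held in 7 of 20 alternatives.

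Opposite calls on the 2 strands were rarer. Region 11076 had them at 1 month. Its plus probe read 2.34 and 2.28 in WT, 1.31 and 1.16 at 1 month, 2.29 and 2.11 at 3 months, 2.60 and 2.70 at 6 months, and 2.62, 2.46 and 2.49 at 9 months. The 1-month samples lay below all others. The minus probe read -2.18 and -1.94 in WT, -0.56 and -0.62 at 1 month, -1.22 and -1.07 at 3 months, -0.17 and -0.36 at 6 months, and 0.39, 0.36 and 0.41 at 9 months, above WT in all 9 samples. At 1 month the plus probe fell by 1.08 ± 0.10 on the log2 scale and the minus probe rose by 1.47 ± 0.11 (limma adjusted p = 0.00115 and 0.000383). The minus probe rose by 2.45 ± 0.10 at 9 months (adjusted p = 7.53e-06).

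The probes of region 10352 moved in opposite directions. The plus probe gave -2.73 and -2.999 in WT, -3.14 and -3.24 at 1 month, -2.44 and -2.41 at 3 months, -2.07 and -1.84 at 6 months, and -1.19, -1.31 and -1.43 at 9 months. The minus probe gave 0.01 and 0.20 in WT, -0.02 and -0.16 at 1 month, -0.03 and -0.38 at 3 months, -0.44 and -0.39 at 6 months, and -1.03, -1.13 and -1.12 at 9 months. Each group from 3 months on lay higher than the one before on the plus strand. At 9 months the plus probe rose by 1.55 ± 0.12 and the minus probe fell by 1.20 ± 0.12 on the log2 scale (limma adjusted p = 0.000121 and 0.000405). Both calls held in 19 of 19 alternatives, and the strand difference rose by 2.75 ± 0.21 (adjusted p = 0.000286).

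Further regions with opposite calls were smaller in size or dimmer. In region 11104 at 3 months the plus probe changed by -0.71 ± 0.15 and the minus probe by 0.90 ± 0.09 (limma adjusted p = 0.0284 and 0.000883). In region 12004 at 6 months the plus probe, among the brightest at 4.86 and 4.93 in WT, changed by -0.67 ± 0.08 and the minus probe by 0.93 ± 0.26 (adjusted p = 0.00132 and 0.0391). In region 10912 at 6 months the changes were 1.74 ± 0.43 on the plus and -0.59 ± 0.14 on the minus strand (adjusted p = 0.0261 on each). The minus probe of region 12004 and the plus probe of region 10912 were each detected on 1 of 2 WT arrays. The plus probe of region 11104 was undetected on replicate 1 at 3 months. Its processed signal there was 18.32, and the lowest detected signal of that array was 18.4.

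In region 10551 at 9 months the plus probe fell by 1.78 ± 0.33 on the log2 scale (limma adjusted p = 0.00588). Its minus probe was called higher, but was detected on 0 of 2 WT arrays and on 1 of 3 at 9 months, so no change is given for it. Between 6 months and 1 month, region 11602 changed by -1.38 ± 0.29 on the plus and 0.71 ± 0.10 on the minus strand, and region 11853 by 0.67 ± 0.10 and -0.73 ± 0.13. Their adjusted p ran from 0.00185 to 0.012. The plus probe of region 11602 was undetected on replicate 1 at 6 months, with a processed signal of 12.39 where the lowest detected was 12.8. Its call held in 16 of 20 alternatives. In region 11853 the minus probe was lowest at 6 months, at -3.92 and -3.63, and highest at 3 months, at -2.16 and -2.27.

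Of the regions whose probes moved the same way, a probe was undetected in WT in 3 of 7 at 1 month and 2 of 9 at 3 months. At 6 and 9 months the counts were 11 of 38 and 11 of 57. In region 10071 neither probe was detected on any of 2 WT arrays. Its plus probe rose in steps from -4.61 and -4.76 in WT to -3.94 and -3.80 at 1 month, -3.36 and -3.04 at 3 months and -2.64 and -2.57 at 6 months, and read -3.12, -3.04 and -2.99 at 9 months. The 6-month group was at least 3.74-fold and the 9-month group at least 2.75-fold above WT on that strand, and on the minus strand at least 1.1-fold and 1.71-fold. In region 11077 the plus probe was detected on every array and rose by 1.82 ± 0.08 at 6 months and 1.63 ± 0.07 at 9 months (limma adjusted p = 1.43e-05 and 1.09e-05). Its minus probe, undetected in WT, was at least 1.17-fold and 1.52-fold higher at those ages.

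In region 12111 both probes rose at 1 month, by 0.92 ± 0.16 on the plus and 1.17 ± 0.15 on the minus strand (limma adjusted p = 0.0143 and 0.00426). On WT replicate 1 the plus probe was undetected, at a processed signal of 15 where the lowest detected was 16.4. Its WT level is thus measured only in part. The minus probe of region 12111 rose by 3.10 ± 0.14 at 9 months, from -3.80 and -3.94 in WT to -0.81, -0.74 and -0.76. In region 10103 the plus probe was undetected in WT and at least 1.63-fold higher at 3 months, and the minus probe rose by 1.24 ± 0.30 there (adjusted p = 0.0414). In region 10848 at 1 month the plus probe was at least 1.63-fold above WT, and the minus probe changed by 1.18 ± 0.28 (adjusted p = 0.0448), a call that held in 9 of 21 alternatives. In region 11518 at 3 months the changes were 1.47 ± 0.37 and 0.75 ± 0.17 (adjusted p = 0.0469 and 0.0302), which held in 9 of 21 and 10 of 20 alternatives.

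Region 11962 fell on both strands between 1 month and 6 months, by 1.12 ± 0.20 on the plus and 1.27 ± 0.10 on the minus strand (limma adjusted p = 0.00575 and 0.000116). In that comparison the minus probe of region 11741 rose by 0.99 ± 0.14 (adjusted p = 0.00234). Its plus probe was called higher as well, but was detected on no array outside the 6-month group and passed the filter through that group, so no change is given for it. In region 11962 at 9 months the plus probe read -3.18, -3.33 and -3.79, above its 6-month values of -4.49 and -4.64, and the minus probe read 0.56, 0.50 and 0.56, where the 6-month values were 0.55 and 0.31. No test compared 9 months with 6 months.

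The minus probes of regions 11076, 11100 and 12111 had a like order of groups, an observation made after their values were seen. In region 11100 the minus probe read -3.08 and -2.91 in WT, -1.42 and -1.47 at 1 month, -2.12 and -2.09 at 3 months, -1.22 and -1.47 at 6 months, and -0.71, -0.77 and -0.73 at 9 months. In all 3 regions WT was lowest, 3 months next, and 9 months highest. The plus probe of region 11100, between 2.50 and 3.11, was called in no comparison, and the strand difference fell by 1.52 ± 0.23 at 1 month (limma adjusted p = 0.0171, and 0.0821 without the 9-month arrays).

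Some probes were detected on every array of 1 group and on no array of another. For these a lower bound on the fold was computed as above. It was over 1-fold for 280 of the 3444 usable probes (8.13%, against 6.95% of all probes of the array) and 2-fold or more for 54 (1.57% against 1.46%), of which 30 were plus and 24 minus probes. The shares were thus close to those of the whole array. The brightest group was 9 months for 40.7% of the 54 and 6 months for 35.2%, and for 41.7% and 30.9% of such probes over the whole array. This tally uses the flag whose rate in negative spots differed between arrays, and nothing on the groups is drawn from it. The opposite probe of the region was detected on all 14 arrays in 23 of the 54 and on none in 13.

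The 4 largest bounds were all on the plus strand. In region 10420 the plus probe was detected at 9 months only, at -0.56, -0.55 and -0.66, and lay between -7.18 and -5.58 in the other 8 samples. That is at least 15.2-fold above WT and at least 24.6-fold above 6 months. The minus probe was detected on 1 of the 14 arrays. Region 11795 was detected on the plus strand from 3 months on: the values were -6.01 and -6.54 in WT, -5.64 and -6.16 at 1 month, -0.74 and -0.86 at 3 months, -1.85 and -2.04 at 6 months, and -0.61, -0.44 and -0.45 at 9 months. Against WT the bounds were 13.1-fold, 5.96-fold and 16.2-fold. All 7 samples from 3 months on lay above the 4 earlier ones.

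Regions 10524 and 11325 lost the plus signal at 9 months. The plus probe of region 10524 gave -0.34 and -0.43 in WT, -1.60 and -1.44 at 1 month, -1.94 and -2.94 at 3 months, -1.34 and -1.53 at 6 months, and -6.73, -5.12 and -5.72 at 9 months, where it was detected on 0 of 3 arrays. WT was at least 22.6-fold above 9 months. Its minus probe stayed between 2.94 and 3.38 in all 11 samples. The plus probe of region 11325 gave -1.37 and -1.76 in WT, -0.88 and -0.65 at 1 month, -2.40 and -2.42 at 3 months, -1.21 and -1.35 at 6 months, and -6.71, -6.10 and -5.47 at 9 months. WT was at least 9.97-fold and 1 month at least 17.4-fold above 9 months, while the minus probe lay between 0.23 and 0.85.

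**Figure D5:**
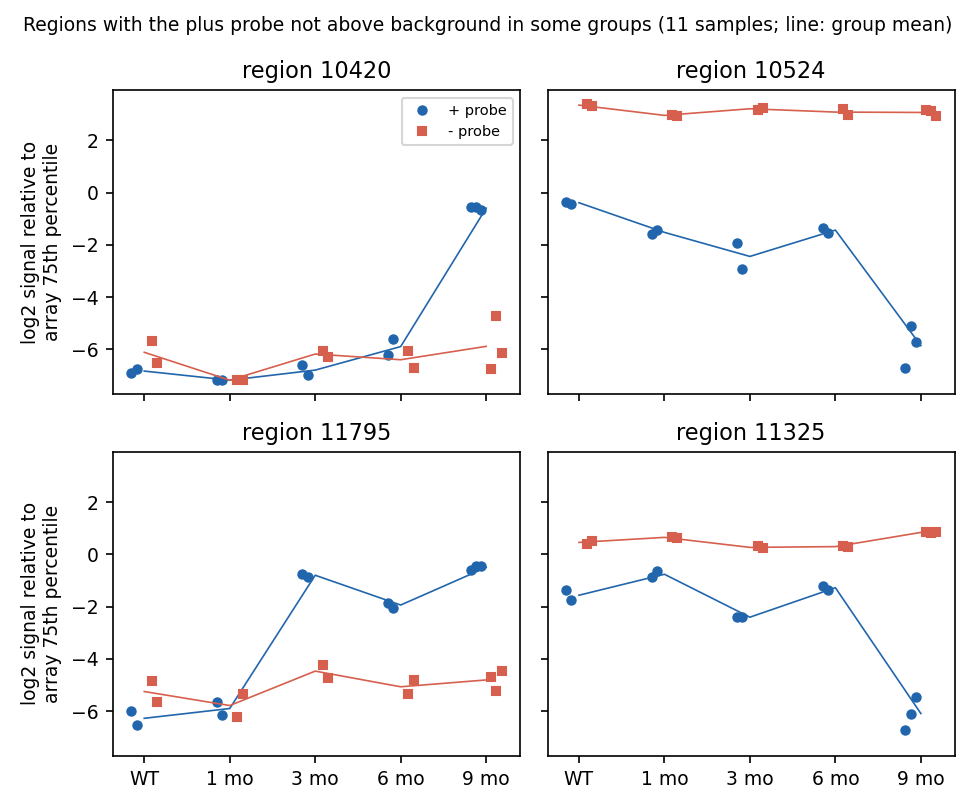
Log2 signal relative to the array's 75th percentile (y axis) of the plus probe (blue circles) and minus probe (red squares) of 4 regions in 11 samples, by group (x axis), with lines through the group means; values near -6 are not well above background. The plus probe of region 10420 is high at 9 months, that of 11795 from 3 months on, and those of 10524 and 11325 are low at 9 months, where the minus probe changes little.

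At the other end, regions 10632, 11802 and 12031 had the narrowest spans of group means on both strands among the 451 regions detected on every array. In region 12031 the plus probe stayed between -0.44 and 0.05 and the minus probe between -2.98 and -2.40 over the 11 samples. In region 11802 the minus probe stayed between 0.36 and 0.70. None of their 6 probes was called in any comparison.

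Regions with consecutive numbers were compared as a description, since the numbering may follow the genome but the files do not say so. For regions detected on every array on the strand concerned, the correlation over the 11 samples between neighbours in number had a median of 0.16 on the plus strand (349 pairs) and 0.09 on the minus strand (492 pairs). At a distance of 100 numbers it was -0.00049 (275 pairs) and 0.05 (411 pairs).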

How the data were processed

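The 14 deposited scanner files were read. The submitters' processing notes name Agilent Feature Extraction 10.7.1.1, which wrote the processed signal (an intensity on a linear scale, already background-subtracted, per the file headers) and the flags used here; the build of the probe design is not given in the sources used here. The deposited value table (intensity, column medians 27.9 to 36.8) equals the local background of the 14 arrays that have a scanner file in all 62513 rows (tolerance 0.001) and was not used as expression; a sample with no scanner file was left out.

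The log2 processed signal minus each array's 75th percentile was analysed with limma 3.58.1 (R 4.3.3; lmFit and eBayes over the 5 groups, Benjamini-Hochberg threshold 0.05). Controls and non-uniform spots were dropped, and probes well above background on 3 or more of 14 arrays were kept. Arrays of a group whose negative control spots, as deviations from the mean over spots of the same probe, correlated above 0.5 were averaged as 1 sample. The strand difference had its own fit. Scripts were tested on simulated data. Bounds use each array's lowest signal among probes flagged well above background.

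The members, lists and tests were chosen with earlier results of these data known. Named regions are, per comparison, the 2 largest changes of the strand difference in each direction with both probes detected on every array of both groups and no overlap of samples, the 2 largest opposite and the 2 largest same-direction pairs, the 5 widest spans by the F test, the 4 largest bounds and the 3 narrowest regions. Alternatives were quantile normalization, normexp (offset 50, on the median signal, since the files used hold no mean signal), 2 other filters on dim probes, another percentile base, all arrays as separate samples, the scan setting as a block, fits without 9 months, with 2 groups, or without 1 sample, and, added after the data were seen, the labelled sex as a term. Sequences of the probes are not printed.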

Additional observations from a re-analysis of the deposited data

Results flagged for a closer look

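The strand difference of region 10539 moved in opposite directions at 1 month and at 6 months against WT. It was 3.66 higher than WT at 1 month and 3.25 lower at 6 months (-3.25), and the difference between 6 months and 1 month, tested without WT, was -6.91 on the log2 scale (limma adjusted p = 0.000348). The minus probe carried it, in all 4 samples concerned. The test passed in 18 of 19 alternatives, with values from -7.65 to -4.96; with only the 2 groups in the fit the adjusted p was 0.138. On 1 of the 3 arrays at 1 month the minus probe was not well above background. No group of the samples used had 4 or more members, so single samples far from their group were not looked for.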

How the results depend on the processing

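Counts of called strand differences moved more than counts of called probes. The values below give 1, 3 and 6 months against WT in that order unless named. Quantile normalization gave 10 strand differences at 3 months. Normexp gave 106 probes at 3 months and 212 for 6 months against 1 month, and 25, 29 and 85 strand differences with 37 for 6 months against 1 month. Without a filter on dim probes there were 7 strand differences at 1 month, 6 at 3 months, 13 for 6 months against 1 month and 73 by the F test. With only the 451 regions detected on every array there were 6, 10 and, for 6 months against 1 month, 40. With 14 arrays as separate samples the probes were 463, 493 and 788, with 699 for 6 months against 1 month and 1426 by the F test, and the strand differences 42, 96 and 153, with 213 at 9 months, 112 for 6 months against 1 month and 337 by the F test; copies then count as replicates. With the scan setting as a block and no 9-month arrays, 306 and 362 probes were called at 1 and 3 months and 633 for 6 months against 1 month, and 27, 40, 90 and 85 strand differences. Without the 9-month arrays, 73 and 130 probes were called at 1 and 3 months and 346 by the F test, and 3, 3 and 1 strand differences, with 4 for 6 months against 1 month and 9 by the F test. With only the 2 groups compared, 4, 9 and 60 probes and 86 for 6 months against 1 month were called by limma, and 0 strand differences in each of these comparisons (123, 113, 150 and 117 at an unadjusted p below 0.05). The other flag for a positive and significant signal put the median of regions with both strands detected at 1282.5 in place of 785.5.

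Leaving out 1 sample at a time gave 49 to 165 probes at 1 month, 104 to 240 at 3 months, 271 to 417 at 6 months, 494 to 777 at 9 months, 221 to 362 for 6 months against 1 month and 719 to 961 by the F test. For the strand differences the ranges were 1 to 18, 4 to 26, 7 to 35, 59 to 135, 3 to 19 and 52 to 116. The lowest counts of strand differences came without replicate 2 at 1 month (1 month against WT, and 6 months against 1 month), replicate 1 at 3 months, replicate 1 at 6 months, WT replicate 1 (9 months) and replicate 2 at 9 months (F test); replicate 2 at 1 month is an averaged pair.

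With the labelled sex as a term, added after the data were seen, every count of calls stayed within 1.5 times its main value, and 115 of the 132 strand differences at 9 months were called again. Of the 67 named results 62 kept their call. The 5 that lost it were the strand differences of regions 10279 and 10204 at 3 months (adjusted p = 0.0509 each) and of 10816 between 6 months and 1 month (0.0502), the plus probe of 11518 at 3 months (0.0557) and the minus probe of 10551 at 9 months (0.0703).

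Of 1314 values of the 67 named results under the alternatives, 1077 kept direction and call, 227 lost the call and 10 turned, all under normexp. The named results were chosen by size of change in these same data. Some of their probes passed the filter only through the group where they were high. Several alternatives left out a sample of a group outside the comparison. The counts of kept calls, here and above, thus describe the named results and give them no independent support. The turned values at 1 month were -0.20 for the plus probe of region 10848, -0.29 for the plus and -0.017 for the minus probe of region 12111. At 3 months it was -0.16 for the minus probe of region 11518. At 6 months they were -0.31 for the minus probe of region 12004, -0.26 for that of region 10071 and -0.42 for that of region 11077. At 9 months they were -0.48 for the minus probe of region 10551, -0.010 for the plus probe of region 10071 and -0.22 for the minus probe of region 11077. The cause was not tested. No paired analysis was possible because every sample title carries replicate number 1 and the numbers used here follow accession order.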
